A study of Homo sapiens with 9 samples.

Results

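The protein kinase C, D and N family was represented in this kinome knockout screen by 52 single guide RNAs (sgRNAs) against 13 genes, out of 3152 sgRNAs and 763 genes in the library. Members were taken by gene name: the conventional isoforms PRKCA and PRKCB, the nPKC isoforms PRKCD, PRKCE, PRKCH and PRKCQ, the atypical isoforms PRKCI and PRKCZ, the protein kinase D genes PRKD1, PRKD2 and PRKD3, and the protein kinase N genes PKN2 and PKN3. RH4 is a rhabdomyosarcoma cell line with the PAX3::FOXO1 fusion, an oncogenic transcription factor, and all libraries came from this single line after infection with the Brunello kinome library, a lentiviral pool used with Cas9 to disrupt kinase genes. Infection kept 1000 cells per sgRNA. Puromycin at 0.25 µg/ml was added 48 h afterwards and lasted 72 h, at the end of which the baseline cells were collected. These times follow the labels and methods. Another passage of the study describes a longer selection, so how long cells had carried the library at baseline is uncertain. The remainder had 72 h without selection before vehicle or pralatrexate (1.5 nM) was given for 10 days, with passage every 4 days. Pralatrexate blocks dihydrofolate reductase and with it thymidylate supply. Each of the 3 groups had 3 libraries, and the sources call them both parallel cultures and technical replicates, so every p-value below refers to the spread among these libraries and that spread may be technical.

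Protein kinase C enzymes are serine/threonine kinases that act downstream of receptors coupled to phospholipase C. Conventional isoforms need calcium and diacylglycerol, nPKC isoforms need diacylglycerol but not calcium, and atypical isoforms respond to neither and work with the PAR6 polarity complex. Protein kinase D enzymes bind diacylglycerol and are phosphorylated by nPKC enzymes, and protein kinase N enzymes have a related catalytic domain. In a dropout screen, an sgRNA whose target is needed for growth becomes rarer over time, and one whose target restrains growth becomes more common.

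Totals ran from 2468136 to 4602712 reads per library, and the 52 sgRNAs together took 1.61 to 1.67% of them, close to the 1.65% that they make up by number. Their share was 1.62 ± 0.0155% in baseline libraries, 1.66 ± 0.00563% in vehicle libraries and 1.64 ± 0.0269% in pralatrexate libraries (SD, n = 3 each). At baseline a member sgRNA had 334 to 3318 reads on average, with a median of 1124 against 1225 for all sgRNAs, and all 52 passed the filter on low counts. PRKCH sgRNA 2 was the thinnest and had a standard error of 0.24 on the log2 scale in the comparison of vehicle with baseline, whereas PRKD3 sgRNA 4, the deepest, had 0.095. Changes are log2 fold changes from edgeR, averaged over the 4 sgRNAs of a gene, and sgRNAs are numbered 1 to 4 in the order of the count table. Levels of a gene in a library are means over its sgRNAs of log2 CPM (reads scaled to library size). They depend on how much of each sgRNA the library held, so levels are compared between groups and never between genes.

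Vehicle was first set against baseline, to ask which knockouts of the family were lost or gained during growth in the absence of drug. No member gene was called depleted or enriched by robust rank aggregation, which ranks genes by the sgRNA p-values. Over all 763 genes it called 51 depleted (6.68%) and 3 enriched (0.393%) at a false discovery rate (FDR) of 0.05. At an unadjusted p under 0.05, 1 member, PRKCB, was on the depleted side and 1, PKN2, on the enriched side. The 13 changes lay between -0.31 and 0.27 with a median of 0.02, equal to the median of 0.02 over all genes. A fit of limma to gene means per library, which asks about consistency over libraries rather than over sgRNAs, called PRKCB and PRKCD lower and PRKCI and PKN2 higher, where 19.8% of all genes were called lower and 9.04% higher. The same 4 genes were those whose 3 vehicle libraries all lay on one side of the 3 baseline libraries, which held downward for 24.4% and upward for 19.5% of all genes.

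PRKCB, a conventional isoform best known for its role in B cell receptor signalling, had the largest decrease of the family. Its level was 8.71, 8.62 and 8.69 log2 CPM at baseline and 8.38, 8.39 and 8.31 with vehicle. All vehicle libraries were below all baseline libraries. The change was -0.31 ± 0.12 (SD over 4 sgRNAs), or 0.805 of baseline, with all 4 sgRNAs lower (exact rank aggregation p = 0.0119, FDR 0.12; limma FDR 0.00583). The 4 sgRNAs differed in size, from -0.14 ± 0.11 for sgRNA 1 (SE) to -0.42 ± 0.13 for sgRNA 4 (edgeR FDR 0.0275), and sgRNA 4 alone passed on its own. In the limma fit the call was kept without any one library, with FDR from 0.0104 to 0.0296. PRKCA, the other conventional isoform, is widely expressed and was called by neither test. Its level was 7.97, 8.14 and 8.05 log2 CPM at baseline and 8.05, 7.99 and 8.13 with vehicle, and the groups overlapped. The change of 0.02 ± 0.20 was the mean of 3 sgRNAs below 0 and of sgRNA 2 at 0.29 (edgeR FDR 0.0662).

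The nPKC isoforms lay on both sides of 0. PRKCD, which has been tied to apoptosis and the DNA damage response, went from 8.18, 8.16 and 8.25 log2 CPM at baseline to 7.87, 7.98 and 8.0 with vehicle, without overlap. Its change of -0.25 ± 0.38 (limma FDR 0.0261; rank aggregation FDR 0.837) had a larger spread over sgRNAs than that of any other member. PRKCD sgRNA 3 stood at 8.64, 8.67 and 8.66 log2 CPM at baseline and at 8.09, 7.75 and 7.92 with vehicle, the largest decrease of the 52 sgRNAs at -0.73 ± 0.14 (SE; edgeR FDR 0.000287). The other three PRKCD sgRNAs were at -0.31, -0.14 and 0.18, and none of them passed. Without sgRNA 3 the gene stood at -0.09 (FDR 1). The limma call was also lost without any one of 4 libraries, with FDR up to 0.105 when baseline replicate 3 was left out.

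PRKCE, PRKCH and PRKCQ had overlapping levels in both groups. PRKCE, linked to cell survival signalling, was at 0.11 ± 0.24, PRKCH at 0.08 ± 0.24 and PRKCQ, best known from T cell receptor signalling, at -0.04 ± 0.14. Of these 12 sgRNAs only PRKCE sgRNA 1 passed, at 0.47 ± 0.16 (SE; edgeR FDR 0.04). It stood at 7.83, 7.73 and 7.58 log2 CPM at baseline and at 8.55, 7.99 and 7.95 with vehicle, where replicate 1 was the highest. The other three PRKCE sgRNAs lay between -0.03 and 0.01.

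The 2 atypical isoforms lay on opposite sides of 0. PRKCI, which acts with PAR6 in cell polarity and is amplified in some carcinomas, had levels of 7.78, 7.84 and 7.77 log2 CPM at baseline and 8.09, 7.96 and 7.93 with vehicle. The groups did not overlap, and the change was 0.19 ± 0.30 (limma FDR 0.0468; rank aggregation FDR 0.926), but -0.13 with scaling on non-targeting sgRNAs. Its sgRNAs 1 to 4 were at 0.08, 0.31, -0.17 and 0.54, so 1 of 4 was on the other side, and none passed. Without sgRNA 4 the gene stood at 0.07. The limma call held only without vehicle replicate 3 and was lost without any one of the other 5 libraries, at FDR from 0.0561 to 0.167. PRKCZ, the related polarity kinase, was at -0.08 ± 0.20, with 2 sgRNAs below 0 and 2 above it, and its groups overlapped.

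No protein kinase D gene was called by rank aggregation or limma. PRKD1 was at 0.05 ± 0.14, PRKD2 at -0.09 ± 0.15 and PRKD3 at 0.11 ± 0.07 (SD over 4 sgRNAs). These kinases regulate vesicle fission at the trans-Golgi network. All 4 PRKD3 sgRNAs were above 0, at 0.06 to 0.21, but the levels of 9.07, 9.14 and 9.04 log2 CPM at baseline and 9.28, 9.09 and 9.21 with vehicle overlapped, and limma gave an FDR of 0.288.

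PKN2, a kinase involved in cell junctions and migration, had the largest increase of the family on this scale, though it turned from 0.27 to -0.06 when libraries were scaled on non-targeting sgRNAs. Its level was 8.03, 7.99 and 7.97 log2 CPM at baseline and 8.11, 8.36 and 8.32 with vehicle. All vehicle libraries were above all baseline libraries, and vehicle replicate 1 was the closest to them. The change was 0.27 ± 0.19, or 1.21 times baseline, with all 4 sgRNAs above 0 (exact rank aggregation p = 0.0201, FDR 0.556; limma FDR 0.0357). PKN2 sgRNA 2 passed at 0.44 ± 0.14 (SE; edgeR FDR 0.0263), while sgRNA 4 was at 0.01 ± 0.19. The limma call was lost without any one of 5 libraries, at FDR from 0.0619 to 0.114, and held only without vehicle replicate 1, the lowest of the group. PKN3, which has been described as acting downstream of phosphoinositide 3-kinase, was at -0.05 ± 0.15, with overlapping groups.

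Taken by subfamily, the median sgRNA change was -0.16 for the conventional, -0.01 for the nPKC and 0.08 for the atypical isoforms, and 0.06 for protein kinase D and 0.07 for protein kinase N. Of the 8 conventional sgRNAs, 7 were below 0, 4 against PRKCB and 3 against PRKCA. In the mean level per library, the conventional sgRNAs were at 8.36 ± 0.02 log2 CPM at baseline and 8.21 ± 0.02 with vehicle, and the protein kinase D sgRNAs at 8.49 ± 0.01 and 8.51 ± 0.02 (SD, n = 3 each). Subfamilies of 2 to 4 genes were described without a test. Of the 52 sgRNAs, 2 were called lower (PRKCB sgRNA 4 and PRKCD sgRNA 3) and 2 higher (PRKCE sgRNA 1 and PKN2 sgRNA 2), where 12.8% and 6.26% of all sgRNAs were. At an unadjusted p under 0.05 there were 13 of 52, against 31.3% of all sgRNAs. In 3 of the 13 genes (PRKCB, PRKD3 and PKN2) all 4 sgRNAs lay on one side of 0, which held for 32.9% of all genes with 4 sgRNAs.

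Set against sgRNAs without a target, the same values read differently. The 99 non-targeting sgRNAs that passed the filter had a median change of 0.31 ± 0.13 (SD over sgRNAs), with a range from -0.05 to 0.67, between baseline and vehicle. All 13 members were below that median, from PKN2, 0.04 below it, to PRKCB, 0.63 below it, and so were 98.4% of all genes. By sgRNA, 47 of 52 were below the non-targeting median, 34 lay within the non-targeting range and the other 18 below it, among them all 4 against PRKCB. Of all targeting sgRNAs, 58.9% lay within the non-targeting range, so the 18 are not a trait of the family. With scaling on non-targeting sgRNAs all 13 members were below 0. The direction of every member above 0 on the first scale, PKN2 and PRKCI among them, therefore depends on the scale. In a limma fit relative to non-targeting sgRNAs, added after the data were seen, 11 of the 13 were called lower, all but PKN2 and PRKCI, and so were 81.8% of all genes. Non-targeting sgRNAs direct no cut, so the effect of a cut and that of losing the target gene cannot be told apart here.

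The comparison of pralatrexate with vehicle asked which knockouts made cells more or less sensitive to the drug. No member was called in either direction, neither by rank aggregation, which called 4 genes depleted (0.524%) and 0 enriched (0%), nor by limma, which called 0.524% lower and 0.131% higher. No member had an unadjusted rank aggregation p under 0.05. None of the 52 sgRNAs passed in edgeR, where 0.0318% of all sgRNAs were lower and 0% higher, and 2 of 52 had an unadjusted p under 0.05 (5.6% of all sgRNAs). DESeq2 called 0 as well. In no member did the 3 pralatrexate libraries lie apart from the 3 vehicle libraries, which occurred downward in 3.41% and upward in 3.67% of all genes.

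All 13 changes lay between -0.09 (PRKCE) and 0.07 (PRKCH), with a median of -0.01 against 0.01 for all genes. The 95% intervals from limma spanned -0.24 to 0.21 over all members, so a change of a member's mean beyond these bounds lay outside every interval. These intervals are from the fit on group only, which did not use the pairing of vehicle and pralatrexate libraries by number. PRKCB was at -0.02 ± 0.10 (SD over sgRNAs), with levels of 8.38, 8.39 and 8.31 log2 CPM with vehicle and 8.48, 8.35 and 8.18 with pralatrexate. The pralatrexate libraries spanned the vehicle ones. PRKCD was at 0.01 ± 0.11 and PKN2 at -0.01 ± 0.10. PRKCA was at 0.04, PRKCQ at 0.06, PRKCZ at 0.01, PRKD2 at -0.03 and PRKD3 at -0.06.

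The widest spread between sgRNAs was in PRKCI, at -0.08 ± 0.32. PRKCI sgRNA 4 had the lowest value of the 52, -0.52 ± 0.20 (SE; edgeR FDR 0.82), and was the only one outside the range of non-targeting sgRNAs, which ran from -0.43 to 0.47. Of all targeting sgRNAs, 97.6% lay within that range. PRKCI sgRNA 4 stood at 7.04, 7.71 and 7.20 log2 CPM at baseline, at 8.22, 7.83 and 7.55 with vehicle and at 7.06, 7.65 and 7.36 with pralatrexate. Vehicle replicate 1 was the highest, and vehicle and pralatrexate overlapped. The other three PRKCI sgRNAs were at 0.13, -0.10 and 0.17. PRKD1, at -0.09 ± 0.25, held both the sgRNA with the lowest p (sgRNA 2, -0.34 ± 0.11; edgeR FDR 0.655) and the one with the highest value (sgRNA 3, 0.25 ± 0.19). PRKD1 sgRNA 2 was at 8.62, 8.79 and 8.70 log2 CPM with vehicle and at 8.32, 8.41 and 8.39 with pralatrexate, without overlap, whereas its baseline values of 8.56, 8.47 and 8.52 lay between them. It was picked for its p, the lowest of the 52, and the share of all sgRNAs without overlap was not computed. Non-targeting sgRNAs had a median of -0.004 here, so the choice of scale moved these values little.

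The comparison of pralatrexate with baseline shares its baseline libraries with the first comparison and is given beside it, not as independent support. Rank aggregation again called no member, against 55 genes depleted (7.21%) and 2 enriched (0.262%), and 1 member, PRKCB, had an unadjusted p under 0.05. PRKCB was at -0.33 ± 0.20 (exact rank aggregation p = 0.0231, FDR 0.196; limma FDR 0.0033), PRKCD at -0.23 ± 0.45 (limma FDR 0.0318) and PKN2 at 0.26 ± 0.17 (limma FDR 0.0435; -0.05 with scaling on non-targeting sgRNAs). These were the 3 members that limma called, 2 lower and 1 higher, where 19.9% and 9.83% of all genes were. PRKCI was at 0.11 ± 0.11 and was not called (limma FDR 0.225). The PRKCB call was kept without any one library (FDR 0.000998 to 0.0218), that of PRKCD was lost without any one of 4 libraries (up to 0.15, without pralatrexate replicate 1) and that of PKN2 without any one of 4 (up to 0.213, without pralatrexate replicate 3).

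Levels with pralatrexate were 7.77, 8.03 and 8.07 log2 CPM for PRKCD and 8.14, 8.14 and 8.47 for PKN2, where replicate 1 was the lowest for PRKCD and replicate 3 the highest for PKN2. All pralatrexate libraries lay below all baseline libraries in 4 members (PRKCB, PRKCD, PRKD2 and PKN3) and above them in 1 (PKN2), which held for 25.6% and 20.3% of all genes. PRKD2 went from 8.39, 8.47 and 8.39 to 8.24, 8.24 and 8.38 log2 CPM, a change of -0.12 ± 0.16 (limma FDR 0.182), and PKN3 from 8.69, 8.69 and 8.71 to 8.63, 8.64 and 8.65, a change of -0.06 ± 0.14 (limma FDR 0.539). The gaps were narrow in both.

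Of the 52 sgRNAs, 4 were called lower and 2 higher against baseline, where 13.1% and 5.98% of all sgRNAs were. The lower ones were PRKCB sgRNA 3 (-0.51) and sgRNA 4 (-0.50), and PRKCD sgRNA 3 (-0.75; edgeR FDR 0.000222) and sgRNA 4 (-0.43). PRKCD sgRNA 1 remained on the other side at 0.30. The higher ones were PKN2 sgRNA 3 (0.48; FDR 0.0379) and PRKCA sgRNA 2 (0.39; FDR 0.0118), while the other three PRKCA sgRNAs lay between -0.10 and 0.02. All 13 members were again below the non-targeting median of 0.34, as were 98.3% of all genes, and relative to non-targeting sgRNAs limma called 12 of 13 lower, all but PKN2, and 78.4% of all genes.

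Other kinases of these pathways were read from lists chosen by function. PDPK1, which phosphorylates the activation loop of protein kinase C and N enzymes as well as AKT, and MTOR, whose complex 2 primes the carboxy-terminal sites of conventional and nPKC isoforms and of AKT, were both depleted with vehicle against baseline. PDPK1 was at -1.63 ± 1.27 (FDR 0.0167; 3 of 4 sgRNAs lower) and MTOR at -2.07 ± 1.33 (FDR 0.00352; 4 of 4 lower). Both were also depleted with pralatrexate against baseline, at -1.52 (FDR 0.0203) and -2.14 (FDR 0.00565), and neither was called between the treatments, at 0.10 and -0.07. Rank aggregation called none of 10 diacylglycerol kinases, which remove diacylglycerol (from -0.21 for DGKG to 0.29 for DGKB with vehicle against baseline), and none of 5 polarity kinases (from -0.22 for STK11 to 0.21 for MARK1) in any comparison. With vehicle against baseline, limma called DGKB (0.29, FDR 0.00209), DGKQ (0.25, FDR 0.00985) and MARK1 (FDR 0.0334) higher, all still below the non-targeting median, and STK11 (FDR 0.042) lower. With pralatrexate against baseline it called the same 4 genes in the same directions, and also DGKA (-0.27, FDR 0.012) and MARK2 (-0.32, FDR 0.00231) lower. Between the treatments the lowest and highest values were -0.11 for DGKA and 0.10 for DGKH, and -0.14 for MARK2 and 0.19 for MARK4.

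In the genome (GRCh38, GENCODE spans, 1-based) the genes with a called sgRNA or a limma call were PRKCA at chr17:66302613-66810743 (+), PRKCB at chr16:23835983-24220611 (+), PRKCD at chr3:53156009-53192717 (+), PRKCE at chr2:45651345-46187990 (+), PRKCI at chr3:170222424-170305977 (+) and PKN2 at chr1:88684222-88836255 (+). All are protein-coding, and no other annotated protein-coding gene overlaps them. Positions of the sgRNA cut sites within these genes were not analysed here.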

How the data were processed

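The authors deposited a table of raw read counts per sgRNA, not normalized, for 9 libraries. Per the labels, sgRNA cassettes were amplified by PCR from genomic DNA, and the submitters' processing notes name Bowtie 1.0.0. How mismatches were handled and which program counted the reads is not given in the sources used here. PCR copies were counted as reads of their own. Gene tables made with MAGeCK, deposited by the authors, held log2 fold changes, scores and p-values of their comparisons and were not used. The files hold no sgRNA sequences, so none are shown.

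The 13 members and the other gene lists were chosen with earlier results of these data known, and some listed genes are not reported here. A minimum mean of 30 reads over the libraries removed 7 sgRNAs, none of a member, and left 3145. They were fitted in edgeR 4.0.16 (quasi-likelihood, TMM, group only, all libraries; R 4.3.3), with Benjamini-Hochberg adjustment over all sgRNAs. The SE of an sgRNA is its change over the square root of F. As in the study, genes were ranked by robust rank aggregation, here of one-sided edgeR p-values with a limit of 0.25 and an exact p for independent uniform ranks, adjusted over 763 genes at 0.05. limma 3.58.1 was run on mean log2 CPM per gene and library (prior count 2). Intervals are 95%. The common dispersion was 0.0173, or a coefficient of variation of 13.2% between libraries. Same-group libraries differed by 10.7 to 25.8 times the sampling variance, so each counted as 1. Scripts were tested on simulated data.

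Alternatives were DESeq2 1.42.0, scaling on non-targeting sgRNAs, no filter or a minimum of 300 reads, the compared groups alone, a replicate block, reads summed per gene, leaving out the strongest sgRNA, and leaving out each library. All members were named. Of their sgRNAs, those past the threshold and the lowest and highest per comparison were named, with other sgRNAs chosen after their values were seen. Same-numbered vehicle and pralatrexate libraries deviated together (correlations over sgRNAs of 0.175, 0.198 and 0.188), so the numbers pair the day 10 libraries. Baseline numbers did not pair with them (-0.03 to 0.07).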

Additional observations from a re-analysis of the deposited data

How the results depend on the processing

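No member gene passed rank aggregation in any comparison with DESeq2, non-targeting scaling, either filter, the compared groups alone, the replicate block (0 called in each comparison), without the strongest sgRNA or without any one library. Other summaries of a gene did call members against baseline. limma called 2 lower and 2 higher with vehicle, and 2 and 1 with pralatrexate. Of all genes it called 19.8% and 9.04%, and 19.9% and 9.83%. With the replicate block in limma the counts were the same, 2 and 2, and 2 and 1. Of all genes 20.7% and 11.4% were called there with vehicle, and 20.8% and 11.5% with pralatrexate. edgeR on summed reads gave 2 and 1 in both. It called 21.0% of all genes lower and 14.4% higher with vehicle, and 22.8% and 16.1% with pralatrexate. For pralatrexate against vehicle every alternative called 0 members and 0 of their sgRNAs. Member sgRNAs called with vehicle against baseline numbered 4, 8 with DESeq2, 21 with non-targeting scaling and 1 to 4 without 1 library, the lowest without baseline replicate 1 or 3. With pralatrexate against baseline they numbered 6, 22 with non-targeting scaling and 3 to 5 without 1 library. Non-targeting scaling put the median of all genes at -0.31 and -0.30 in these 2 comparisons. The share of all sgRNAs called was not computed for these alternatives, so their sgRNA counts are not a result about the family.

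Relative to non-targeting sgRNAs, an alternative added after seeing the data, limma called 11 members lower with vehicle and 12 with pralatrexate. Of all genes, 81.8% and 78.4% were called lower. Members above 0 that turned to called decreases were, with vehicle, PRKCA (-0.31), PRKCE (-0.22), PRKCH (-0.26), PRKD1 (-0.29) and PRKD3 (-0.21), and, with pralatrexate, PRKCA (-0.26), PRKCE (-0.30), PRKCH (-0.20), PRKCQ (-0.31), PRKCI (-0.20) and PRKD3 (-0.27). What makes non-targeting sgRNAs more common at day 10 was not tested.

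Standard errors of member sgRNAs ran from 0.095 to 0.28 on the log2 scale. Same-group libraries differed by more than sampling of reads gives, so depth was not the only limit on precision.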
